A study of Mus musculus with 6 samples.

Results

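Iron handling in the shControl and shLmna cells was followed through 10 genes of iron uptake, storage, export and heme breakdown. The list comprised the transferrin receptor Tfrc and the iron transporter Slc11a2, the ferritin subunits Fth1 and Ftl1, the iron exporter Slc40a1, the heme oxygenase Hmox1 and its repressor Bach1, the iron regulatory proteins Aco1 and Ireb2, and the iron sensor Fbxl5. Symbols were matched exactly to those of the deposited count table, which held 9 of the 10 among its 10520 genes. Slc40a1 was not in the table, and Ireb2 and Bach1 had too few counts to be tested, which left 7 tested genes. The 10 genes were chosen by their measured values in this same contrast as well as by function, so their values are a description and carry no p-value of their own.

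The cells were E0771, a mouse breast carcinoma line, carrying either an empty pLKO.5-puro lentiviral vector (shControl) or a vector for an shRNA against lamin A/C (shLmna), and both groups were selected with puromycin. In the labels the knockdown libraries are titled shRNA4, whereas the genotype field reads shLmna. The control vector holds no hairpin, so a hairpin of any sequence and this hairpin cannot be told apart, and 1 shRNA against lamin A/C was sequenced. Each group had 3 MARS-seq libraries, an assay that reads the 3′ ends of polyadenylated RNA and counts each captured molecule once by its random tag, or UMI (unique molecular identifier). The labels do not say whether the replicates were separate cultures, so error terms measure the spread between libraries, which may be technical.

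The libraries held 1896612 to 3242051 UMIs in shControl and 1846208 to 2706709 in shLmna. Differences between replicates exceeded sampling noise (chi-square of 5.11 to 8.28 for each degree of freedom). The library titles carry consecutive numbers after a plate name, with each group in an unbroken run. The labels do not say what the numbers mean. If they are plate positions, position and group cannot be told apart. Lmna, the targeted gene, had 2066, 2794 and 1764 UMIs in shControl and 1035, 1023 and 713 in shLmna, and its log2 fold change was -1.20 with a standard error of 0.13 (edgeR, adjusted p = 3.5e-05). Of the epithelial markers Krt8, Krt18, Epcam and Cdh1, 3 of 4 were in the table, with sums of 576 to 847 UMIs in shControl and 531 to 848 in shLmna, and the defining junction gene Cdh1 was not in it. Krt8 held most of these UMIs, with a log2 fold change of 0.074, beside -0.53 for Krt18 and -0.90 for Epcam. None of the 3 had an adjusted p below 0.05 (edgeR), and the groups did not overlap for Epcam. None of 8 erythroid markers was in the table. Across the 8969 tested genes, 7.96% were higher and 5.78% were lower in shLmna at an adjusted p below 0.05, 32.5% had groups that did not overlap, and the median log2 fold change was 0.0033.

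Cells take up iron bound to transferrin through the transferrin receptor, release it from endosomes through the transporter encoded by Slc11a2, and store what is not used in ferritin, a shell of heavy and light subunits. Most of this is set after transcription: the iron regulatory proteins encoded by Aco1 and Ireb2 bind hairpins called iron-responsive elements when iron is scarce, which keeps Tfrc mRNA from decay and blocks translation of ferritin mRNA. Heme, the other large pool of cellular iron, is opened by heme oxygenase 1, and its gene Hmox1 is held down by the heme-sensing repressor BACH1 and driven by NRF2. Proliferating tumor cells, as a rule, carry many transferrin receptors.

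Among the 7 tested genes, Tfrc rose in shLmna, whereas Slc11a2 and Hmox1 fell. Thus 1 of 7 was higher beside 7.96% of all tested genes, and 2 of 7 were lower beside 5.78%, and nothing is read from these shares because the contrast chose the genes. The groups did not overlap for the same 3 genes, beside 32.5% of all tested genes. The median log2 fold change of the 7 was -0.13, beside 0.0033 for all tested genes. The ferritin genes, Aco1 and Fbxl5 did not pass the threshold. Spread between replicates was uneven among the genes, with a coefficient of variation of 6.13% in shControl and 5.24% in shLmna for Hmox1, against 44.1% and 23.5% for Tfrc.

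**Figure D1:**
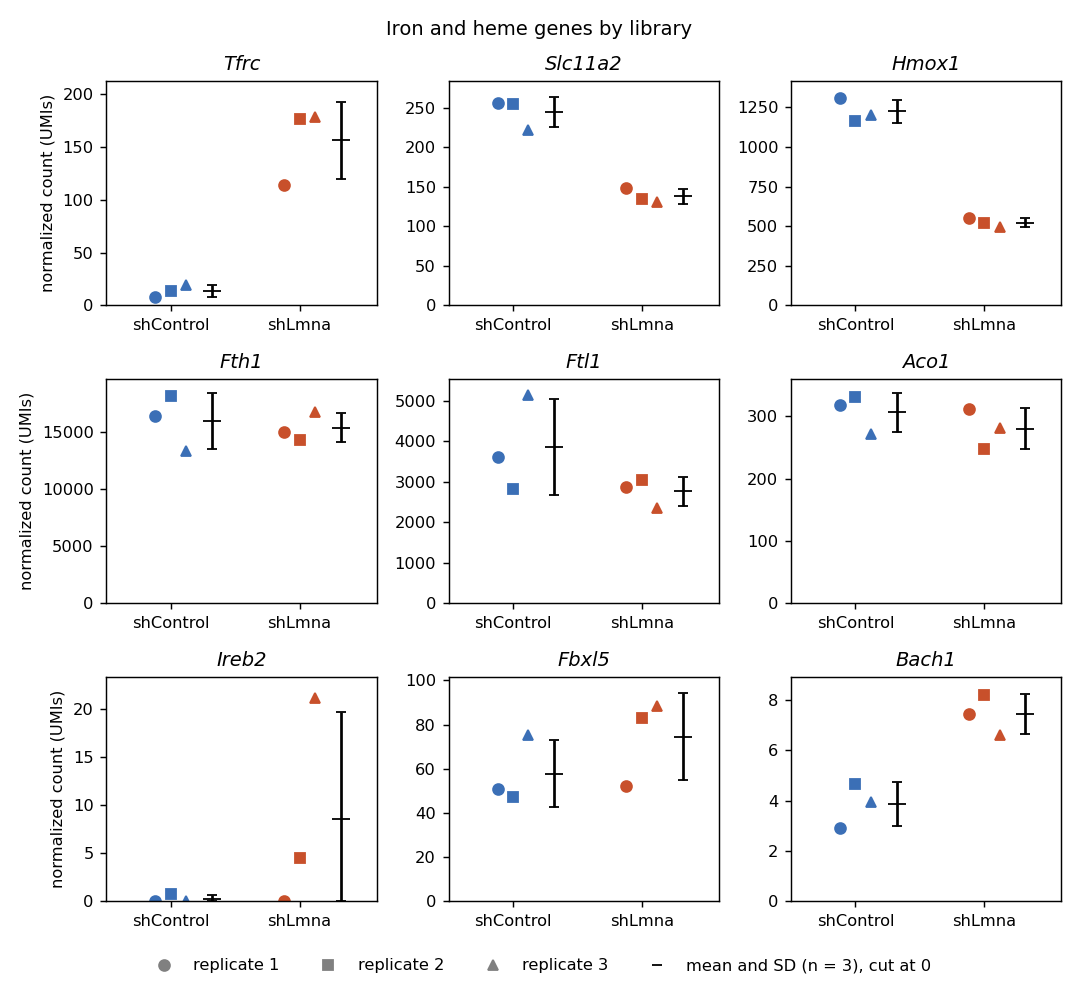
Normalized count (UMIs scaled to the mean TMM-adjusted library size, linear axes from 0) of the 9 genes in the count table, by group. Symbols are the 3 libraries of each group, and bars are the mean and SD (n = 3), cut at 0. The groups are apart for Tfrc, Slc11a2, Hmox1 and, at under 10 normalized counts, Bach1, and they overlap for the other 5 genes.

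The iron-responsive elements found by a letter pattern in some of these genes are shown, because the iron regulatory proteins bind hairpins of this kind. They were searched in the coding transcripts of these genes in GENCODE M21 (GRCm38). The pattern was a C, 5 bases, the loop CAGTGN and 5 bases that pair with the first 5, G-U pairs included. The printed runs of 29 bases give the RNA strand in DNA letters, with the 6 bases of the loop in capitals.
Tfrc, 3′ UTR, chromosome 16, 32631219 to 32631247, forward strand: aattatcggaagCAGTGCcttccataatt
Tfrc, 3′ UTR, chromosome 16, 32631598 to 32631626, forward strand: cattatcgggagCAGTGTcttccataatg
Tfrc, 3′ UTR, chromosome 16, 32631663 to 32631691, forward strand: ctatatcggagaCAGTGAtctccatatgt
Tfrc, 3′ UTR, chromosome 16, 32631710 to 32631738, forward strand: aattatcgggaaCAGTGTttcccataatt
Fth1, 5′ UTR, chromosome 19, 9982732 to 9982760, forward strand: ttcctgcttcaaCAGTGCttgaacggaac
Ftl1, 5′ UTR, chromosome 7, 45459779 to 45459807, reverse strand: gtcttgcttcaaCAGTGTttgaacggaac
Slc40a1, 5′ UTR, chromosome 1, 45925465 to 45925493, reverse strand: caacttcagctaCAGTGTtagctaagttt

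The pattern was found in the 5′ UTR of 10 of 10194 counted genes with a matched coding transcript (0.0981%) and in the 3′ UTR of 65 (0.638%). Tfrc alone of the listed genes held it in the 3′ UTR, with 4 matches, and Fth1, Ftl1 and Slc40a1 held it in the 5′ UTR. No match was found in the annotated coding transcripts of Slc11a2, which says only that this strict pattern was not found there. A looser pattern was not searched. The 4 printed Tfrc runs ended 1056 to 1547 bases before the end of the transcript, outside the last 1000 bases in which UMIs were counted. The Tfrc counts thus report molecules with this 3′ end and not the state of the elements themselves. A match is a description of sequence and not of binding.

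Tfrc (chromosome 16, 32608920 to 32632794, forward strand) encodes the receptor that brings transferrin-bound iron into the cell. In replicates 1, 2 and 3, in this order here and for every gene, it had 8, 17 and 15 UMIs in shControl against 122, 193 and 135 in shLmna. Normalized counts were 7.80, 13.2 and 19.8 in shControl and 113.7, 175.8 and 178.4 in shLmna. Tfrc was thus scarce in each shControl library, and the lowest shLmna library lay far above the highest shControl library. The means were 13.6 ± 5.99 (SD, n = 3) and 156 ± 36.7 (SD, n = 3), an 11.7-fold difference, with a log2 fold change of 3.55 (standard error 0.29).

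The 3′ end of Tfrc is AT-rich, with 37.0% GC, and falls in the lowest of 5 equal bins of tested genes by GC content (27.1% to 40.3%). Genes of that bin had a median log2 fold change of 0.18, and 15.1% were called higher against 2.13% lower, whereas the medians of the other 4 bins lay between -0.055 and -0.0011. With a correction for GC content fitted to each library, the log2 fold change of Tfrc was 3.24 (standard error 0.24). On the deposited ComBat-corrected log2 scale the Tfrc difference was smaller, at 1.34.

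**Figure D2:**
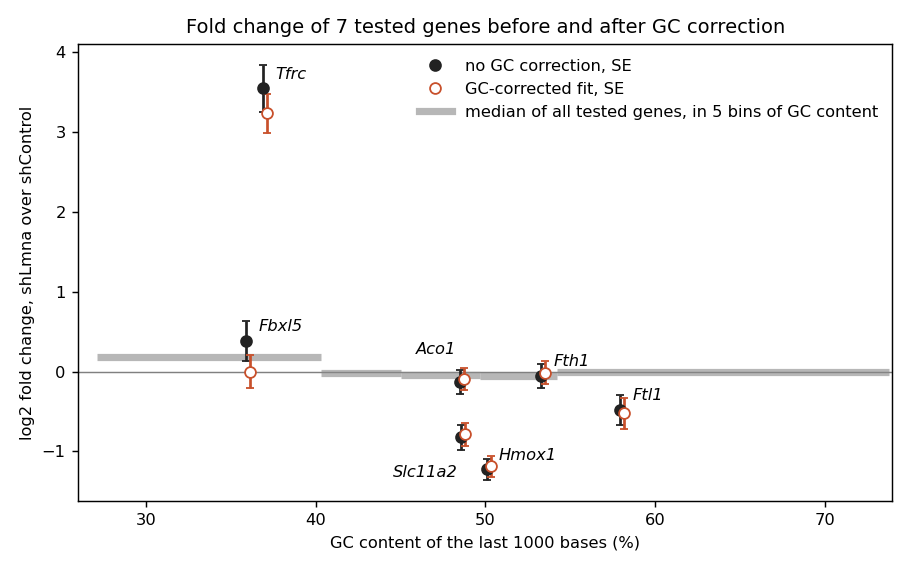
Log2 fold change of shLmna over shControl against the GC content of the last 1000 bases of the transcript, for the 7 tested genes, without GC correction (filled) and with it (open). Bars are standard errors, and grey lines are the medians of all tested genes in 5 bins of GC content. Tfrc moves from 3.55 to 3.24 and Fbxl5 from 0.38 to -0.0028, and the other 5 genes barely move.

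Slc11a2 (chromosome 15, 100387898 to 100425072, reverse strand) encodes DMT1, which carries ferrous iron out of endosomes and, in the gut, across the apical membrane. It had 263, 328 and 169 UMIs in shControl and 159, 148 and 99 in shLmna. Normalized counts were 256, 255 and 223 against 148, 135 and 131. All 3 shLmna libraries lay below all 3 shControl libraries, in the opposite direction to Tfrc. The means were 245 ± 19.1 and 138 ± 9.06 (SD, n = 3 each), 1.77-fold lower in shLmna, with a log2 fold change of -0.83 (standard error 0.15) that was -0.78 after GC correction. Slc11a2 transcripts end at alternative 3′ exons with and without an iron-responsive element, and the deposited counts give 1 value per gene, so these forms could not be told apart.

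Within single libraries, where scaling between libraries plays no part, the UMIs of Slc11a2 per UMI of Tfrc were 32.9, 19.3 and 11.3 in shControl and 1.30, 0.767 and 0.733 in shLmna. Hence Slc11a2 far outnumbered Tfrc in each control library, whereas their counts were close in the knockdown libraries. The ratio restates the counts of the 2 genes and is no separate evidence. Both transcripts are counted at their 3′ ends, 1 UMI per captured molecule, so counts were not divided by transcript length.

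Ferritin transcripts were among the most abundant of the cell. Fth1 (chromosome 19, 9980598 to 9985098, forward strand), the heavy subunit with ferroxidase activity, had 16880, 23436 and 10125 UMIs in shControl and 16141, 15738 and 12716 in shLmna. It ranked between 4th and 8th of all genes by count in the shControl libraries and between 2nd and 4th in the shLmna libraries. Normalized counts were 16455, 18211 and 13332 against 15037, 14339 and 16802. The shLmna libraries thus lay inside the range of the shControl libraries. The means were 15999.6 ± 2471 and 15392 ± 1269.8 (SD, n = 3 each), with a log2 fold change of -0.056 (standard error 0.15). The whole Fth1 mRNA of 929 bases fits in the counted window, which overlaps Best1 on the opposite strand, and whether the counting used strand is not given in the sources used here.

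Ftl1 (chromosome 7, 45457944 to 45459884, reverse strand), the light subunit, had 3714, 3619 and 3896 UMIs in shControl and 3085, 3344 and 1785 in shLmna. Normalized counts were 3621, 2812 and 5130 in shControl and 2874, 3047 and 2359 in shLmna. The highest of all was shControl replicate 3, and the groups overlapped. The means were 3854 ± 1176 and 2759.7 ± 358 (SD, n = 3 each), with a log2 fold change of -0.48 (standard error 0.19), which did not pass the threshold. Without shControl replicate 3 the log2 fold change was -0.23. Outside its own locus, 19 annotated genes hold a stretch of at least 100 bases with 90% or more identity to the counted end of Ftl1, pseudogenes and miRNA entries among them, and the features Gm22133 and Gm10252 overlap Ftl1 itself. Its counts are thus uncertain, because reads can be lost or shared among such stretches. Fth1 has 1 such match, a pseudogene.

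Together the ferritin genes made up 0.782% ± 0.0484 of all UMIs in shControl and 0.742% ± 0.0391 in shLmna (SD, n = 3 each). The UMIs of Fth1 per UMI of Ftl1 were 4.54, 6.48 and 2.60 in shControl and 5.23, 4.71 and 7.12 in shLmna, so the balance of the subunits overlapped between the groups. In contrast, the UMIs of Fth1 per UMI of Tfrc were 2110.0, 1379 and 675 in shControl and 132, 81.5 and 94.2 in shLmna. The storage to uptake ratio of transcripts was thus separate between the groups, although the normalized Fth1 counts overlapped. This ratio largely restates the Tfrc counts, which were 8 to 17 UMIs in the shControl libraries, and is no separate evidence.

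**Figure D3:**
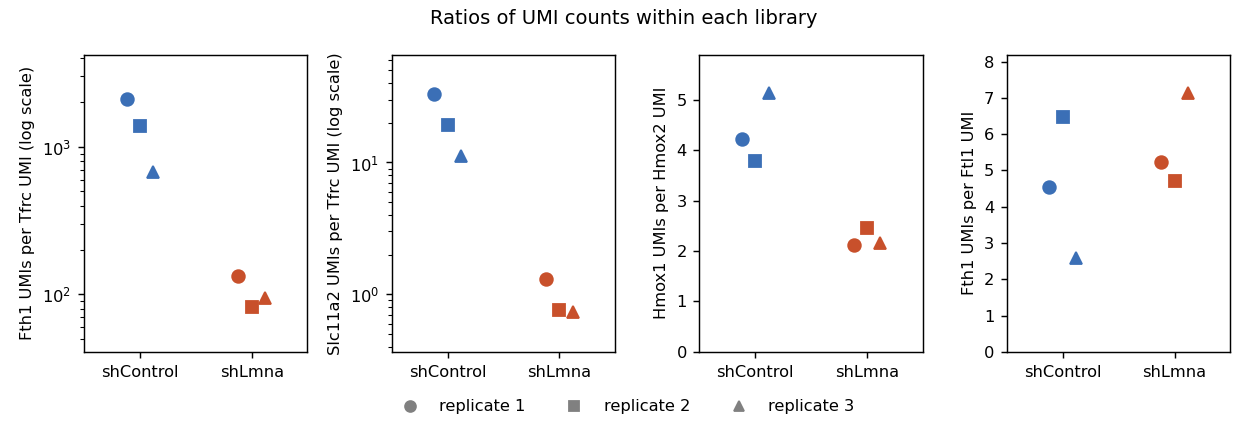
Ratios of UMI counts within each library, by group. Each symbol is 1 library, and the 2 panels with Tfrc have log axes. Fth1 per Tfrc (675 to 2110.0 against 81.5 to 132), Slc11a2 per Tfrc and Hmox1 per Hmox2 do not overlap between groups, whereas Fth1 per Ftl1 does.

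Slc40a1 (chromosome 1, 45908068 to 45926523, reverse strand) encodes ferroportin, the exporter of cellular iron. It was not among the 10520 genes of the table, in which each gene reached at least 6 UMIs in some library, so no level or difference is given for it.

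Hmox1 (chromosome 8, 75093621 to 75100589, forward strand) encodes the inducible heme oxygenase, which opens heme to biliverdin, carbon monoxide and ferrous iron. It had 1342, 1497 and 913 UMIs in shControl and 593, 569 and 377 in shLmna. Normalized counts were 1308, 1163 and 1202 in shControl and 552, 518 and 498 in shLmna. Each knockdown library lay under every control library, with little spread inside either group. The means were 1225 ± 75.0 and 523 ± 27.4 (SD, n = 3 each), 2.34-fold lower in shLmna, with a log2 fold change of -1.23 (standard error 0.13). Its 3′ end holds 50.2% GC, and the value was -1.19 after GC correction.

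Hmox2, the constitutive heme oxygenase, was taken for comparison outside the naming rule, after its values were seen. The UMIs of Hmox1 per UMI of Hmox2 were 4.23, 3.78 and 5.13 in shControl and 2.12, 2.46 and 2.17 in shLmna, with means of 4.38 ± 0.686 and 2.25 ± 0.187 (SD, n = 3 each). The ratio restates the Hmox1 counts without scaling between libraries and is no separate evidence. The log2 fold change of Hmox2 itself was -0.28 (standard error 0.16), which did not pass the threshold.

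Macrophages are a cell type rich in Hmox1, and their markers were examined beside it. Of 8 macrophage markers, Csf1r, Cd68, Cd14 and Lyz2 were in the table, whereas the defining Ptprc and Adgre1 were not. Their sum was 86 to 151 UMIs in shControl and 68 to 94 in shLmna, with log2 fold changes of -1.30 for Cd14 and 1.28 for Lyz2. The markers thus pointed in opposite directions, and their part in the Hmox1 value was not tested. Endothelial Pecam1 summed to 2 to 7 UMIs in shControl and 2 to 5 in shLmna, and the fibroblast and pericyte markers Pdgfra with Pdgfrb to 27 to 58 and 46 to 65. Pdgfrb passed the threshold, with a log2 fold change of 0.74 (adjusted p = 0.0457), whereas that of Pdgfra was 0.039 (adjusted p = 0.958). In bulk RNA, fewer cells that express a gene and less RNA per cell cannot be told apart.

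Bach1 (chromosome 16, 87698945 to 87733346, forward strand) encodes the repressor of Hmox1 that heme releases from DNA. It was at the edge of detection, with 3, 6 and 3 UMIs in shControl and 8, 9 and 5 in shLmna. The sums were 12 and 22 UMIs, a ratio of 2.0 after scaling to depth (95% exact interval 0.946 to 4.43, counting error only). The interval includes equal levels, so no difference was detectable at this depth by counting error alone. On normalized counts, 2.92, 4.66 and 3.95 in shControl and 7.45, 8.20 and 6.61 in shLmna, the groups did not overlap.

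The regulators of iron-responsive elements were less alike in level than in function. Aco1 (chromosome 4, 40143081 to 40198338, forward strand) encodes iron regulatory protein 1, a cytosolic aconitase when it holds an iron-sulfur cluster. It had 326, 426 and 206 UMIs in shControl and 335, 271 and 213 in shLmna. The groups overlapped, with mean normalized counts of 307 ± 31.4 and 280.1 ± 32.6 (SD, n = 3 each) and a log2 fold change of -0.13 (standard error 0.15).

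Ireb2 (chromosome 9, 54863789 to 54912530, forward strand) encodes iron regulatory protein 2, which is degraded when iron is plentiful. It had 0, 1 and 0 UMIs in shControl and 0, 5 and 16 in shLmna. Of the 21 UMIs of shLmna, 16 were in replicate 3, and replicate 1 had none, like 2 of the control libraries. The ratio of sums was 22.9, with an exact 95% interval of 3.68 to 946 that covers counting error only and not the spread between libraries. Without replicate 3, shLmna held 5 UMIs, and the groups overlapped in either case.

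Fbxl5 (chromosome 5, 43744615 to 43821638, reverse strand) encodes the iron-sensing subunit of the ubiquitin ligase that marks iron regulatory protein 2 for degradation. It had 52, 61 and 57 UMIs in shControl and 56, 91 and 67 in shLmna. The groups overlapped, with mean normalized counts of 57.7 ± 15.1 and 74.5 ± 19.6 (SD, n = 3 each). The log2 fold change was 0.38 (standard error 0.25), and it was -0.0028 after GC correction of this AT-rich 3′ end (36.0% GC).

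To place these genes in their pathways, 111 further iron and heme genes in 9 lists were examined, of which 93 were in the table and 84 were tested. The lists were drawn up with earlier results of these data known, so their shares and p-values are a description. Of the 84, 8 were higher and 6 were lower in shLmna, so 16.7% passed the threshold, beside 7.96% and 5.78% of all tested genes in the same directions. These shares of all tested genes are the background for each list below, and nothing is read from the counts in single lists. Their median log2 fold change was 0.017, beside 0.0033 for all tested genes. Adjusted p-values in this part are from edgeR's quasi-likelihood test over all 8969 genes.

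Of 7 tested genes of iron uptake and mobilisation other than Tfrc and Slc11a2, 1 rose. Scara5, a receptor that takes up ferritin, had 8, 9 and 7 UMIs in shControl and 46, 53 and 33 in shLmna. The knockdown libraries were well apart from the control libraries, with a log2 fold change of 2.50 (standard error 0.30, adjusted p = 6.6e-05). Each shControl library held under 10 UMIs of Scara5, and the gene passed the low-count filter only through the shLmna libraries. Its p-value is thus given as a description, and without that filter the log2 fold change was 2.49. Its value was 2.45 after GC correction. The median of the list was 0.086.

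The transferrin receptor reaches the endosome through clathrin-coated pits and returns to the surface through recycling endosomes. Of 17 tested genes of this route, 2 rose and 1 fell, and the median was 0.015. Rab11a, a small GTPase of recycling endosomes, had 4, 10 and 17 UMIs in shControl and 43, 47 and 19 in shLmna, with a log2 fold change of 1.80 (standard error 0.44, adjusted p = 0.0133). Rab11a too passed the low-count filter only through the shLmna libraries, so its p-value is a description. After normalization shControl replicate 3 and shLmna replicate 3 were close, at 22.4 and 25.1, and the log2 fold change was 2.58 without shControl replicate 3. The call was lost without shControl replicate 1 (1.39, adjusted p = 0.0506), shControl replicate 2 (1.57, adjusted p = 0.110) or shLmna replicate 1 (1.70, adjusted p = 0.0615). Its 3′ end is AT-rich (34.5% GC), and the log2 fold change was 1.34 after GC correction. With a replicate block added to the GC correction the call was lost as well (edgeR, adjusted p = 0.0606). Picalm, a clathrin assembly protein, rose by 0.71 on the log2 scale (adjusted p = 0.0397), and Ap2a2, a subunit of the AP-2 adaptor, fell by 0.68 (adjusted p = 0.0403). Each of these calls was lost without any of 5 single libraries: shControl replicate 1 or 2, or any shLmna replicate. Without them the log2 fold changes were 0.49 to 0.77 for Picalm and -0.79 to -0.56 for Ap2a2. On all 6 libraries, the call of Picalm was also lost without the low-count filter, at a mean count of at least 50 and with thinning. That of Ap2a2 was also lost with DESeq2 (adjusted p = 0.111), with scaling to total UMIs only and with thinning.

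Of 2 tested genes among iron chaperones, storage and export partners, Pcbp2 rose by 0.74 on the log2 scale (standard error 0.15, adjusted p = 0.00582). It encodes an RNA-binding protein that also hands iron to ferritin, and it had 142, 221 and 129 UMIs in shControl and 265, 309 and 207 in shLmna. Its counted end overlaps Map3k12 on the opposite strand. The other tested gene, Pcbp1, its partner in ferritin loading, was named after its values were seen and had a log2 fold change of 0.25 (adjusted p = 0.356). None of 5 tested genes of the ubiquitin ligase around FBXL5 passed the threshold. The smallest p-values among them were those of Skp1a, with a log2 fold change of -0.21 (adjusted p = 0.453), and Cul1, with -0.096 (adjusted p = 0.787).

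Of 10 tested genes of heme synthesis, 1 fell and none rose, with a median of 0.036. The gene that fell, Alas1, encodes the rate-limiting first enzyme of heme synthesis outside the erythroid lineage. It had 391, 468 and 237 UMIs in shControl and 243, 196 and 167 in shLmna. Its groups did not overlap, and the log2 fold change was -0.76 (standard error 0.15, adjusted p = 0.00483). Of 8 tested genes of heme breakdown and transport other than Hmox1, only Lrp1 passed the threshold and it rose. Lrp1, an endocytic receptor whose ligands include hemopexin-bound heme, had 126, 153 and 89 UMIs in shControl and 240, 252 and 199 in shLmna, with a log2 fold change of 0.99 (standard error 0.15, adjusted p = 0.000649). The median of this list was 0.064.

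Iron-sulfur cluster assembly and mitochondrial iron was the list with the most tested and the most called genes. Of its 20 tested genes 3 were higher and 2 were lower (25%), beside 7.96% and 5.78% of all tested genes, with a median of 0.012. Lyrm4, a partner of the cysteine desulfurase, rose by 0.81 on the log2 scale (adjusted p = 0.0493), and the mitochondrial ferredoxin Fdx1 rose by 0.46 (adjusted p = 0.0499). Both were near the threshold. The call of Fdx1 was lost after GC correction, with a log2 fold change of 0.31 (adjusted p = 0.154), and without any library but shControl replicate 3, at 0.37 to 0.50. The call of Lyrm4 was lost without any library but shLmna replicate 1, at 0.60 to 0.94. Over all alternatives, the call of Lyrm4 was lost in 9 of 17 and that of Fdx1 in 11 of 18. Nubp2 and Narfl, both of the cytosolic assembly machinery, had log2 fold changes of -0.73 (adjusted p = 0.00458) and -0.87 (adjusted p = 0.0132). The call of Narfl was lost without shControl replicate 2 (-0.82, adjusted p = 0.0836) and without shLmna replicate 3 (-0.71, adjusted p = 0.0745). The counted end of Narfl overlaps Haghl on the opposite strand.

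BACH1 binds DNA with small MAF proteins at antioxidant response elements, which NRF2 uses as well. Of 13 tested genes of this list, 2 fell and none rose, with a median of -0.17. Mafk, one of the small MAF partners, had 71, 100 and 45 UMIs in shControl and 47, 23 and 26 in shLmna, and its log2 fold change was -1.07 (standard error 0.26, adjusted p = 0.0133). The counted end of Mafk overlaps Tmem184a on the opposite strand. Its call was lost without shControl replicate 2 (-0.97, adjusted p = 0.0915), shLmna replicate 2 (-0.81, adjusted p = 0.0626) or shLmna replicate 3 (-1.10, adjusted p = 0.0553). Srxn1, which restores oxidised peroxiredoxins, had 375, 493 and 262 UMIs in shControl and 261, 253 and 164 in shLmna, with a log2 fold change of -0.66 (standard error 0.14, adjusted p = 0.00613). Nqo1, a quinone reductase named here after its values were seen, had the highest value of the list, at 1.03 (adjusted p = 0.0631). The genes of this list thus did not share a direction. Neither of 2 tested genes among the other transcripts with an iron-responsive element passed the threshold, and the value of Cdc42bpa was 0.23 (adjusted p = 0.590).

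The antioxidant response element was searched by the letters TGACNNNGC, on both strands, in RefSeq promoter sequences (GRCm38.p6, 250 bases before to 50 after the start of the gene). It was in 14% of 27025 genes, in 17.2% of 8018 genes of the count table and in 9 of 15 genes of the BACH1 list, a list that holds known targets of the element beside BACH1 partners and regulators. The 6 listed genes with a promoter entry, Tfrc, Fth1, Ftl1, Aco1, Ireb2 and Bach1, had no match, and Hmox1, Slc11a2, Slc40a1 and Fbxl5 had no entry. Of the 9 genes of the BACH1 list with a match, only Mafk and Srxn1 passed the threshold, and the others did not. Whether the element bears on the fall of these 2 genes was not tested. The stretches around the matches of the 2 genes that fell are shown with the element in capitals, on the strand of the gene, where it reads as the reverse complement.
Mafk, chromosome 5, 139791513 to 139791541, forward strand: gatcccggaaGCGGTGTCAgtactgggga
Srxn1, chromosome 2, 152105542 to 152105570, forward strand: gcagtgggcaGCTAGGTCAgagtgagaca

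**Figure D4:**
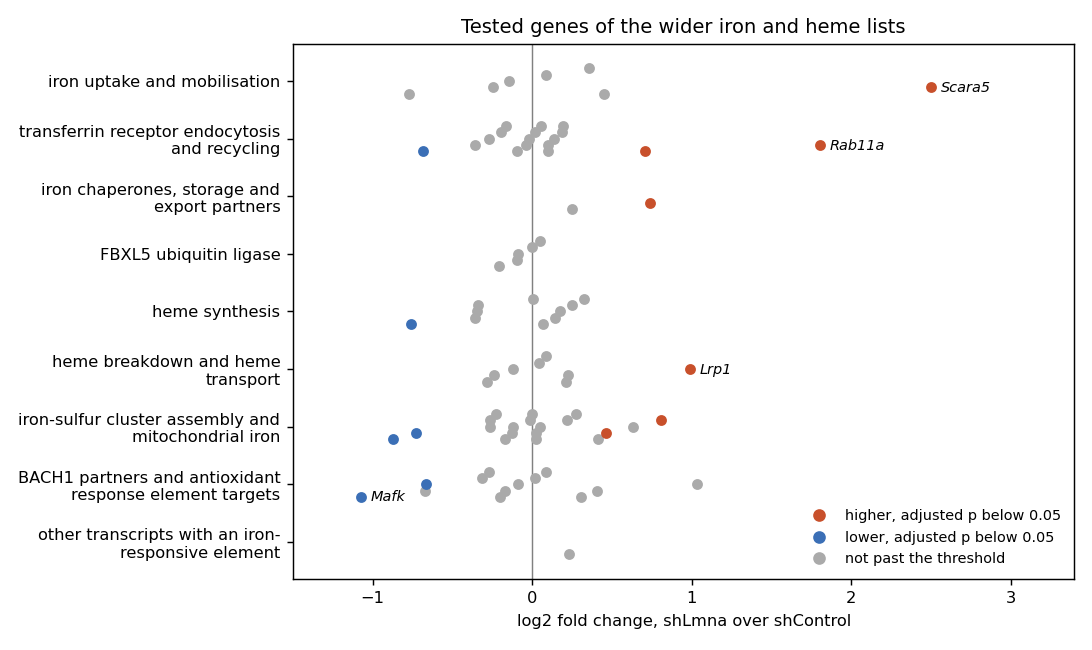
Log2 fold change of shLmna over shControl for 82 of the 84 tested genes of the 9 wider lists. Each point is 1 gene, red or blue where the adjusted p was below 0.05 and grey otherwise, and heights within a list serve only to separate points. The 7 plotted genes that were higher include Rab11a at 1.80 and Scara5 at 2.50, and the 6 that were lower lie between -1.07 and -0.66.

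Last, the tested genes whose pattern over the 6 libraries was most like that of Tfrc or Hmox1 were found by the root mean square difference in log2 CPM, each gene centred on its mean. For Tfrc these were Ptbp3 (0.185), Ppp1cb (0.196) and Stag2 (0.223), with log2 fold changes of 4.52, 3.76 and 4.69. The counted ends of these 3 genes held 35.7%, 40.9% and 31.6% GC, against 37.0% for Tfrc. For Hmox1 they were Mir212 (0.0794), Myc (0.0800) and Dyrk3 (0.103), with log2 fold changes of -1.49, -1.10 and -1.40. The values share libraries and depth, and they describe likeness in these 6 libraries only.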

How the data were processed

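RNA of 3 shControl and 3 shLmna samples of E0771 cells was measured by MARS-seq. The authors trimmed reads with cutadapt, mapped them to mm10 with STAR 2.4.2a and counted UMIs with HTSeq in the last 1000 bases of RefSeq genes and 100 bases downstream, and the deposited values are raw counts. The authors also deposited log2 values corrected with ComBat for a batch that is not given in the sources used here, which served only as an alternative, and a DESeq2 table of their own comparison (fold changes and p-values), which was not used.

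The test was that of edgeR 4.0.16 in R 4.3.3 (filterByExpr, minimum count 10, TMM, quasi-likelihood test, Benjamini-Hochberg adjustment over 8969 genes, threshold 0.05). Normalized counts are UMIs scaled to the mean TMM-adjusted library size. A gene could pass the filter through 1 group alone, as Tfrc, Scara5 and Rab11a did through shLmna. Standard errors are on the log2 scale. DESeq2 1.42.0, limma 3.58.1 (voom, and on the ComBat values), other scalings and filters, thinning, a replicate block, GC correction (loess, span 0.3) and leaving out each library were alternatives, and the scripts were tested on simulated data. No exact permutation test was run, since its smallest possible p at this design (3 against 3) is 0.10. Transcripts and GC content came from GENCODE M21, with 10468 of 10520 genes matched. The genes and lists were chosen with earlier results of these data known. Of each wider list, up to 6 genes past the threshold are named, or the 2 with the smallest p, with the 3 genes most like Tfrc and Hmox1 and the detected markers of other cell types. Some results are not reported here.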

Additional observations from a re-analysis of the deposited data

How the results depend on the processing

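Tfrc, Slc11a2, Hmox1 and Lmna kept their direction and their call in all 18 alternatives, and none of the other 4 tested genes of the list gained one. The listed genes were chosen by their values in these same libraries, so their kept calls are a description and no separate support. The counts of listed genes were 1 higher and 2 lower in every alternative but the ComBat values, on which 2 were higher, the second being Bach1 with a log2 difference of 0.14. On those values 17 wider genes were higher, 12 were lower and 3491 of all genes were called. The wider genes called higher were 5 without a filter on low counts and 3 at a mean count of at least 50, where 779 of all genes were called beside 1232, with fewer genes tested. Leaving out 1 library gave 4 to 9 wider genes higher, 3 to 6 lower and 540 to 1580 calls over all genes. The wider calls lost in some alternatives were those of Rab11a, Picalm, Ap2a2, Narfl, Lyrm4, Fdx1 and Mafk, and no gene called in the main setting and recomputed under the alternatives changed sign. Among uncalled genes named here the sign changed for Fth1 (0.045) and Cul1 (0.080) without shControl replicate 2, for Cul1 also without shLmna replicate 2 (0.0072), and for Fbxl5 with GC correction (-0.0028, and -0.0024 with the replicate block). Hmox2, Pcbp1, Nqo1, the marker genes and the genes most like Tfrc or Hmox1 were not recomputed. With the replicate block, 1 listed gene was higher and 2 were lower, and 1350 of all genes were called. Deviations of libraries with the same number correlated at 0.35, -0.11 and 0.0052. With 3 libraries in each group, these values do not settle whether the numbers pair the samples. Depth limits Ireb2 and Bach1, at 0 to 16 UMIs per library. The causes of these changes were not tested, except that fewer genes or samples entered where a setting removes them.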
